A study of Mus musculus with 8 samples.

Results

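The DNA replication genes are 41 mouse genes chosen for their known work in copying the genome. That work runs from the marking of origins to the packaging of the new strands. This set and the other gene lists below were chosen with earlier results of these data known. Their shares beside those of all genes are thus descriptions. In the deposited array values 40 of the 41 had a transcript cluster, the unit that an array reads as 1 signal, with a single gene symbol. The 30738 genes tested also include genes named by clusters whose several symbols resolved to 1 gene. The cluster of Mcm7 carries further symbols, so Mcm7 is not analysed here. Each of the 40 genes had exactly 1 cluster, so none was chosen over another.

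Replication begins when the origin recognition complex, Cdc6 and Cdt1 load the ring-shaped MCM helicase onto DNA in G1. Cdc45 and the GINS complex turn the loaded ring into a running helicase, primase and polymerase alpha start each strand, and polymerases held by the sliding clamp PCNA extend it. Fen1 and Lig1 finish the lagging strand, ribonucleotide reductase and thymidylate synthase supply the bases, and the CAF-1 complex places histones behind the fork. Many of these genes are targets of the E2F transcription factors, which cyclin-dependent kinases release from the retinoblastoma proteins late in G1. Ependymal cells line the ventricles of the brain with motile cilia, arise from radial glia and normally do not divide once they have differentiated.

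The cultures were primary mouse cells that had been differentiated from radial glial progenitors for 2 weeks. All were grown in DMEM/F12 medium with 2% fetal bovine serum and antibiotics. By their titles, 4 arrays are of untreated cultures and 4 are of cultures that received EGF, the epidermal growth factor, at 20 ng/ml from the start of differentiation. These labels are contradicted by the samples' source names, in which the first group has DMSO, a solvent, and the second has MLN4924, an inhibitor of the NEDD8-activating enzyme. The grouping follows the titles, the descriptions and the treatment protocol, and the groups are called untreated and EGF here as labels. Strain, age and the number of animals are not given in the labels, and nothing says that the numbered replicates came from separate cultures, so p-values measure only the spread between these arrays, which may be technical.

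Signals are log2 values. The array medians over all clusters were 4.56 to 4.6 in the untreated group and 4.71 to 4.82 in the EGF group, and the median log2 difference over all genes was 0.168, EGF minus untreated. It was 0.008 after a further quantile normalization, -0.020 after each array was centred on its median and -0.011 after cyclic loess, so the calls of the replication genes are also given under these 3 scalings. Pearson's r between arrays of 1 group was 0.997 to 0.9981 (untreated) and 0.997 to 0.9972 (EGF). The untreated arrays carried the ependymal and motile cilia markers, with a summed linear signal of 105000 to 162000 over 14 genes against 7860 to 9950 in the EGF arrays. All 14 fell, and Mia lay below the array median on every EGF array. Foxj1 of that list is not analysed here.

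Of the 40 replication genes 17 fell in the EGF arrays, 7 rose and 16 did not pass (limma, two-sided, Benjamini-Hochberg adjusted over 30738 genes, threshold 0.05). Among all genes 20.7% fell and 39.7% rose, against 42.5% and 17.5% of the replication genes. Their median log2 difference was -0.05, below the all-gene median of 0.168 and that of 0.081 over the 12094 genes whose mean signal was above the upper quartile. The all-gene shares include dim genes, and the shares among genes as bright as the replication genes were not worked out. Without genes dim in both groups 5766 genes fell and 6741 rose, against 6351 and 12198 over all genes. A gene that fell could stay in by its untreated signal alone, so these counts do not show how bright the falling genes were. The MCM helicase, the CAF-1 subunits, Fen1, Lig1 and Tyms were lower in the EGF arrays, while Rfc1, Rrm2, Rfc4, Rpa3, Cdt1, Pole2 and Dut were higher. The 4 untreated and 4 EGF values of a gene did not overlap for 24 of the 40 genes, a share near that of all genes (54.0%). No filter on low signals was used: 38 of the 40 lay above the median of every array, 26 above the upper quartile of every array, and the 2 others, Orc1 and Ung, close to the medians.

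Most changes were under 2-fold. Of the 24 genes that passed, 13 fell and 2 rose by at least 0.5 on the log2 scale, and Tyms was the only one past a 2-fold change. The 17 falls were called again under each of the 3 other scalings. Centring added falls of Cdc45, Gins3, Pole, Rpa2 and Slbp, and loess added those of Gins3, Orc1, Rpa2 and Slbp. Of the rises all 7 were called after quantile normalization, 4 after cyclic loess (Rfc1, Rrm2, Rfc4 and Rpa3) and 1, Rfc1, after centring. Centring lowers every gene's difference by the same amount, and loess lowers that of nearly every replication gene. Relative to the deposited values, both therefore favour falls and work against small rises. They cannot show that the falls are steadier than the rises. On the deposited scale the all-gene median was 0.168, so that scale may favour rises. Which scale is right was not tested. Over all genes 24.8% fell and 23.7% rose after quantile normalization, 27.8% and 18.7% after centring, and 27.3% and 20.6% after loess. In these bulk cultures, fewer cells of a type and less RNA per cell cannot be told apart.

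**Figure D1:**
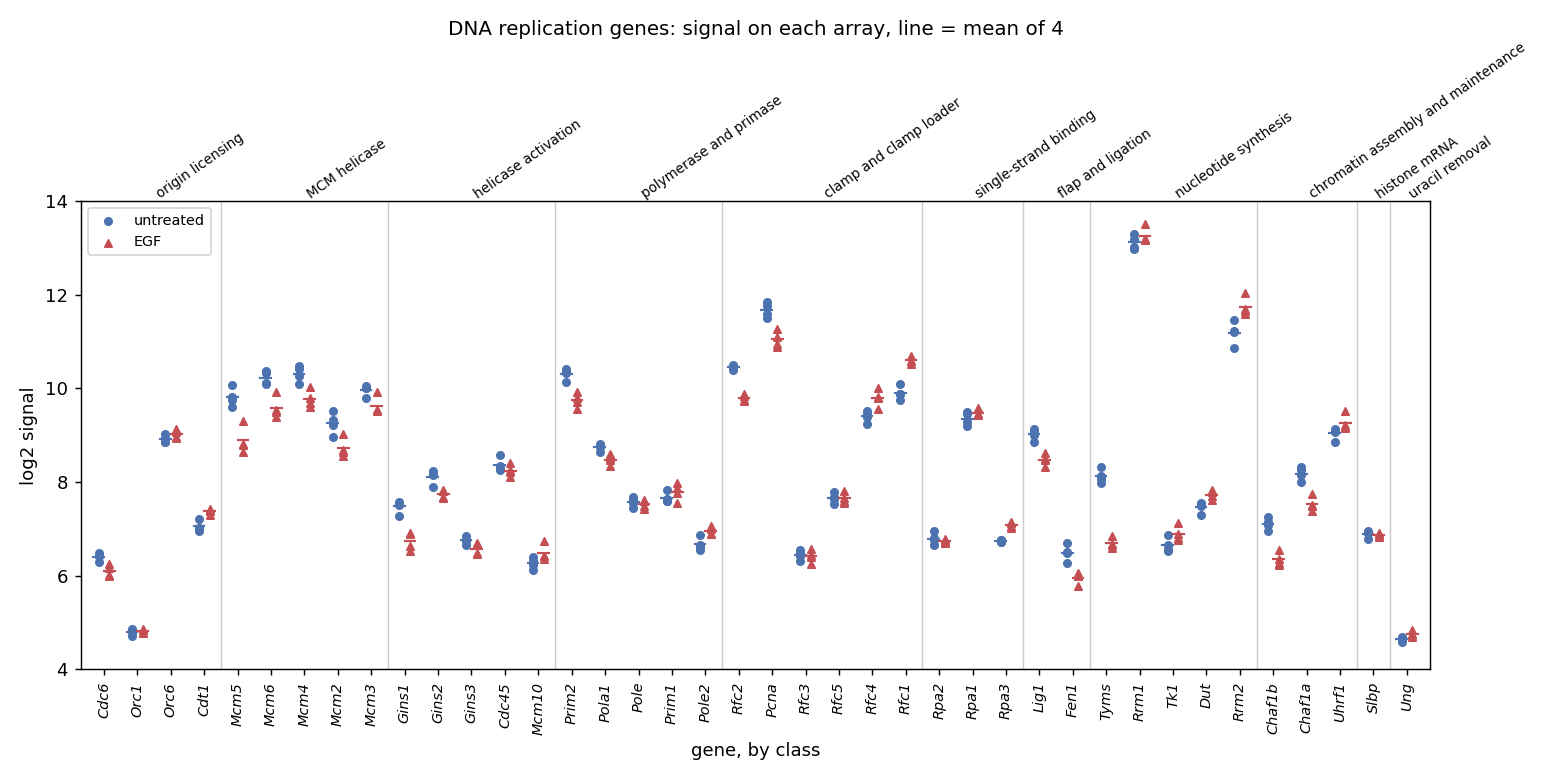
Each point is the log2 signal (y axis) of 1 replication gene (x axis, grouped by class) on 1 array, circles for the 4 untreated and triangles for the 4 EGF arrays, with a line at each group mean. The 2 sets of points lie apart for Tyms, which read 7.99 to 8.32 untreated and 6.59 to 6.85 with EGF, and close together for Slbp; levels of different genes are not comparable, since each has its own probes.

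Of the 40 genes 34 had an entry in RefSeq's promoter table (assembly GRCm38.p6), and the 250 bases before their starts were searched on both strands for 4 E2F words, TTTCCCGC, TTTCGCGC, TTTGCCGC and TTTGGCGC. A word was present in 8 of the 34 (23.5%), against 2.16% of 27025 genes. These 8 sequences are shown because the words were more frequent here than in promoters at large, and because 4 of them belong to genes that fell and 4 to genes that did not pass. Each is written 5′ to 3′ on the gene's own strand, with the word in capitals; GCGGGAAA, GCGCGAAA and GCGCCAAA are words read on the opposite strand, and in Mcm5 and Mcm6 a pair of words overlap. The genes that fell were Mcm5 (chr8:75109330-75109393, plus strand), Mcm6 (chr1:128359719-128359841, minus strand), Cdc6 (chr11:98907987-98908046, plus strand) and Pola1 (chrX:93632260-93632319, minus strand).
Mcm5: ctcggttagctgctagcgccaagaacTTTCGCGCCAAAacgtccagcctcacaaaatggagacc
Mcm6: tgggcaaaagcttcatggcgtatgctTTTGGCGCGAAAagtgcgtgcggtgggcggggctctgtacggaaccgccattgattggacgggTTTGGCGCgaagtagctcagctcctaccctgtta
Cdc6: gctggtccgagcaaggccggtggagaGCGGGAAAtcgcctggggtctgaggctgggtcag
Pola1: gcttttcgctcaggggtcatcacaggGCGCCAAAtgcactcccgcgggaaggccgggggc

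Those that did not pass were Gins3 (chr8:95633492-95633551, plus strand), Orc1 (chr4:108579401-108579453, plus strand), Rfc3 (chr5:151651209-151651244, minus strand) and Uhrf1 (chr17:56304102-56304161, plus strand).
Gins3: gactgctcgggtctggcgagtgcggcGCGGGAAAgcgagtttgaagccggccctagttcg
Orc1: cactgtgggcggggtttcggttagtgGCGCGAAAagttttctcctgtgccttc
Rfc3: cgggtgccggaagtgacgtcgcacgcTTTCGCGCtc
Uhrf1: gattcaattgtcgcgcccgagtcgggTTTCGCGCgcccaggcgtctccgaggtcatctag

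The words began between 10 bases (Rfc3) and 185 bases (Uhrf1) before the annotated start. By call, a word stood in 4 of the 12 promoters of genes that fell, 0 of the 7 of genes that rose and 4 of the 15 of genes that did not pass. No entry was found for Mcm4, Gins1, Gins2, Rfc2 and Prim2, which fell, or for Pole, which did not pass. The missing promoters are thus mostly of genes that fell, which limits this split by call. A match is a description of these letters and not evidence of a bound site. The CCAAT box, CCAAT on either strand, was in 64.7% of the 34 promoters against 37.5% of all, and the GC box, GGGCGG on either strand, in 67.6% against 35.4%. The cell cycle homology region, TTTGAA or TTCGAA, is a mark of mitotic genes, and it was in 14.7% of the replication promoters, 19.6% of all and 47.8% of 23 promoters of mitosis genes. The median GC share of the replication promoters was 60.4%, against 52.4% for all, and the motifs are not independent of it.

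All 5 measured MCM genes fell, and they did so under all 3 other scalings, of which centring and loess favour falls. They encode subunits of the hexameric ring that is loaded at origins and unwinds the DNA. The median log2 difference of the class was -0.54. Mcm5, whose promoter holds the overlapping pair of words shown above, read 10.07, 9.82, 9.75 and 9.60 on the untreated arrays and 9.31, 8.82, 8.79 and 8.64 on the EGF arrays, each given in the order of replicates 1 to 4, as for the genes that follow. Every EGF value lay below every untreated one. It fell by 0.92 ± 0.15 (SE) on the log2 scale, 1.89-fold, with adjusted p = 0.000381 (limma).

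Mcm6, with 3 words in its promoter, read 10.37, 10.33, 10.09 and 10.12 untreated and 9.93, 9.50, 9.55 and 9.38 with EGF. The groups did not overlap, and the gene fell by 0.64 ± 0.12 (limma adjusted p = 0.0012). Mcm4 read 10.49, 10.42, 10.26 and 10.10 untreated and 10.04, 9.79, 9.68 and 9.61 with EGF, and fell by 0.54 ± 0.11 (limma adjusted p = 0.00239). Here the highest EGF array, replicate 1, came close to the lowest untreated array, replicate 4. Mcm2 read 9.52, 9.33, 9.22 and 8.97 untreated and 9.03, 8.68, 8.64 and 8.55 with EGF. Its groups overlapped through those same 2 arrays, and it fell by 0.54 ± 0.13 (limma adjusted p = 0.00614). Mcm3 fell by 0.34 ± 0.11 (limma adjusted p = 0.0191), with untreated values of 9.79 to 10.06 and EGF values of 9.52 to 9.93. Its groups overlapped too, and its call ended without EGF replicate 3 (adjusted p = 0.0511) or EGF replicate 4 (adjusted p = 0.0512).

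The genes that load the ring did not move together in the deposited values. Of 4 licensing genes 1 fell (25.0%, against 20.7% of all genes), 1 rose (25.0%, against 39.7%) and 2 did not pass. So few genes cannot be told apart from all genes by these shares. Cdc6, the ATPase that joins the origin recognition complex to recruit the helicase, fell by 0.30 ± 0.08 (limma adjusted p = 0.00724), with untreated values of 6.29 to 6.48 and EGF values of 6.0 to 6.24. Cdt1, its partner in loading, rose by 0.32 ± 0.07 (limma adjusted p = 0.00323), with untreated values of 6.96 to 7.21 and EGF values of 7.29 to 7.42. The rise of Cdt1 was not called after centring (0.13, adjusted p = 0.211) or loess (0.18, adjusted p = 0.0507). Orc1, the large ATPase subunit of the origin recognition complex, read 4.72 to 4.86 untreated and 4.77 to 4.87 with EGF, close to the array medians. Its difference was 0.02 in the deposited values and -0.16 to -0.17 under the other scalings, with a call after loess alone (adjusted p = 0.0406). Orc6, the smallest subunit, read 8.85 to 9.03 and 8.95 to 9.13, a difference of 0.11 ± 0.07 that did not pass.

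Among the genes that switch the helicase on, 2 of 5 fell (40.0%, against 20.7% of all genes) and 3 did not pass. So few genes cannot be told apart from all genes by this share. Gins1, a subunit of the GINS complex that bridges the ring and the leading-strand polymerase, read 7.54, 7.52, 7.58 and 7.28 untreated and 6.91, 6.89, 6.64 and 6.53 with EGF. The groups were well apart, and Gins1 fell by 0.74 ± 0.10, 1.67-fold (limma adjusted p = 0.000162). Gins2, of the same complex, fell by 0.36 ± 0.08 (limma adjusted p = 0.00413), with untreated values of 7.90 to 8.23 and EGF values of 7.67 to 7.84. Gins3, another subunit, read 6.66 to 6.85 and 6.47 to 6.70, had a difference of -0.17 ± 0.08 and did not pass (limma adjusted p = 0.0752), though it was called after centring (-0.36, adjusted p = 0.00675) and loess (-0.33, adjusted p = 0.00377). Cdc45 read 8.25 to 8.58 untreated and 8.10 to 8.40 with EGF, and Mcm10, a further initiation factor, 6.12 to 6.39 and 6.35 to 6.74. Both overlapped between the groups, with differences of -0.12 ± 0.09 and 0.22 ± 0.10, and neither passed. Cdc45 was called after centring (-0.31, adjusted p = 0.0211). In the complete tetramer, the remaining subunit gene, Gins4, is no member of the 41 and fell by 0.97 ± 0.06 (limma adjusted p = 3.8e-07), with untreated values of 10.62 to 10.78 and EGF values of 9.69 to 9.80.

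The primase and polymerase genes split within their complexes. Prim2, the large primase subunit, read 10.41, 10.34, 10.38 and 10.13 untreated and 9.93, 9.80, 9.72 and 9.56 with EGF. Its groups did not overlap, and it fell by 0.56 ± 0.09, 1.48-fold (limma adjusted p = 0.000524). Prim1, the catalytic primase subunit that works as a dimer with Prim2, read 7.59 to 7.83 and 7.55 to 7.98 and had a difference of 0.14 ± 0.10, which did not pass. Pola1, the catalytic subunit of polymerase alpha, fell by 0.27 ± 0.07 (limma adjusted p = 0.0108), with untreated values of 8.65 to 8.82 and EGF values of 8.34 to 8.61. For polymerase epsilon, which copies the leading strand, the catalytic subunit gene Pole read 7.45 to 7.68 and 7.43 to 7.61, a difference of -0.05 ± 0.07 that did not pass but was called after centring (-0.24, adjusted p = 0.0248). Pole2, the second subunit of the same enzyme, rose by 0.29 ± 0.08 (limma adjusted p = 0.014), with untreated values of 6.54 to 6.87 and EGF values of 6.88 to 7.06, a rise not called after centring (0.10, adjusted p = 0.435) or loess (0.14, adjusted p = 0.197).

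The sliding clamp fell, and the genes of its loader moved both ways. Pcna, the ring that tethers polymerases to DNA, read 11.85, 11.77, 11.51 and 11.60 untreated and 11.28, 10.96, 11.09 and 10.88 with EGF. All EGF arrays were lower, and Pcna fell by 0.63 ± 0.11, 1.55-fold (limma adjusted p = 0.000523). RefSeq also names processed copies of Pcna and of Tyms, and how far such copies share probes with them was not tested.

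Replication factor C opens the clamp and loads it. Its large subunit gene, Rfc1, read 10.10, 9.89, 9.88 and 9.75 untreated and 10.58, 10.70, 10.59 and 10.53 with EGF. It rose by 0.70 ± 0.08, 1.62-fold (limma adjusted p = 4.12e-05), and this rise was called under every scaling tried. Rfc2, a small subunit, went the other way, with 10.46, 10.50, 10.40 and 10.48 untreated and 9.89, 9.76, 9.83 and 9.74 with EGF. It fell by 0.66 ± 0.06, 1.57-fold (limma adjusted p = 6.89e-06), and the spread within each group was small, with SDs of 0.04 and 0.07 (n = 4). Rfc4 rose by 0.40 ± 0.10 (limma adjusted p = 0.00749), with untreated values of 9.23 to 9.51 and EGF values of 9.57 to 10.02, a rise not called after centring (0.21, adjusted p = 0.119). Rfc3 and Rfc5, the other small subunits, overlapped between the groups. Rfc3 read 6.31 to 6.54 and 6.25 to 6.58, and Rfc5 7.53 to 7.79 and 7.56 to 7.80, with differences of -0.03 ± 0.08 and -0.01 ± 0.08 that did not pass.

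Of the 3 subunits of RPA, the protein that coats single-stranded DNA, 1 rose (33.3%, against 39.7% of all genes) and 2 did not pass. Rpa3, the smallest, rose by 0.35 ± 0.06 (limma adjusted p = 0.000566), with untreated values of 6.71 to 6.77 and EGF values of 7.01 to 7.15, a rise not called after centring (0.16, adjusted p = 0.089). Rpa1, the large DNA-binding subunit, read 9.20 to 9.49 and 9.44 to 9.59, and Rpa2 read 6.65 to 6.95 and 6.70 to 6.78. Their differences were 0.13 ± 0.08 and -0.05 ± 0.07, and the groups of both overlapped. Rpa2 was called lower after centring (-0.23, adjusted p = 0.0329) and loess (-0.20, adjusted p = 0.047).

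Both genes that finish Okazaki fragments fell. Lig1, the ligase that seals the nicks, read 9.14, 9.10, 9.0 and 8.85 untreated and 8.63, 8.48, 8.32 and 8.5 with EGF. Fen1, the nuclease that trims the flaps, read 6.69, 6.50, 6.48 and 6.28 untreated and 6.06, 5.78, 6.0 and 5.99 with EGF. Neither gene's groups overlapped. Lig1 fell by 0.54 ± 0.09 (limma adjusted p = 0.000438) and Fen1 by 0.53 ± 0.10 (limma adjusted p = 0.00094). Both falls were called under all 3 other scalings, of which centring and loess favour falls.

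Nucleotide synthesis held the largest fall and the second-largest rise of the 40 genes. Tyms, thymidylate synthase, which makes dTMP from dUMP, read 8.32, 8.12, 8.06 and 7.99 untreated and 6.85, 6.59, 6.67 and 6.66 with EGF. The lowest untreated array stood more than 1 log2 unit above the highest EGF array. Tyms fell by 1.43 ± 0.09, 2.69-fold (limma adjusted p = 3.2e-07). Rrm2, the small subunit of ribonucleotide reductase, read 11.47, 11.21, 11.22 and 10.86 untreated and 12.03, 11.65, 11.69 and 11.58 with EGF. Its groups did not overlap, and it rose by 0.55 ± 0.14, 1.46-fold (limma adjusted p = 0.00621), though this was not called after centring (0.36, adjusted p = 0.0543). Rrm1, the large subunit of the same enzyme, read 12.97 to 13.30 and 13.17 to 13.51, a difference of 0.14 ± 0.10 that did not pass.

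Dut, which breaks down dUTP and thereby feeds Tyms, rose by 0.27 ± 0.08 (limma adjusted p = 0.0142), with untreated values of 7.29 to 7.56 and EGF values of 7.62 to 7.82. That rise was not called after centring (0.08, adjusted p = 0.479) or loess (0.14, adjusted p = 0.176). Tk1, thymidine kinase, which makes dTMP by the salvage route, read 6.52 to 6.86 and 6.76 to 7.13, a difference of 0.25 ± 0.10 that did not pass (limma adjusted p = 0.0597). Ung, which removes uracil from DNA, read 4.58 to 4.69 untreated and 4.70 to 4.85 with EGF. Both its groups lay close to the array medians, and its difference of 0.12 ± 0.06 was -0.07 under the other scalings.

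Both CAF-1 genes of the set fell, where 20.7% of all genes fell, and so few genes cannot be told apart from all genes by this share. CAF-1 is the chaperone that sets new histones on replicated DNA, and Chaf1b is its middle subunit. It read 7.25, 7.14, 7.09 and 6.95 untreated and 6.55, 6.22, 6.36 and 6.27 with EGF, and fell by 0.76 ± 0.09, 1.69-fold (limma adjusted p = 4.87e-05). Chaf1a, the large subunit, read 8.32, 8.26, 8.15 and 8.0 untreated and 7.74, 7.39, 7.52 and 7.49 with EGF, and fell by 0.65 ± 0.10, 1.57-fold (limma adjusted p = 0.000213). Neither gene's groups overlapped. Uhrf1, which recruits the maintenance DNA methyltransferase to hemimethylated DNA, read 8.85 to 9.14 and 9.15 to 9.51, a difference of 0.22 ± 0.10 that did not pass (limma adjusted p = 0.0726). Slbp, which binds the stem-loop of histone mRNAs, read 6.78 to 6.95 and 6.83 to 6.92, with a difference of -0.02 ± 0.06. It was called lower after centring (-0.21, adjusted p = 0.0352) and loess (-0.17, adjusted p = 0.0351).

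**Figure D2:**
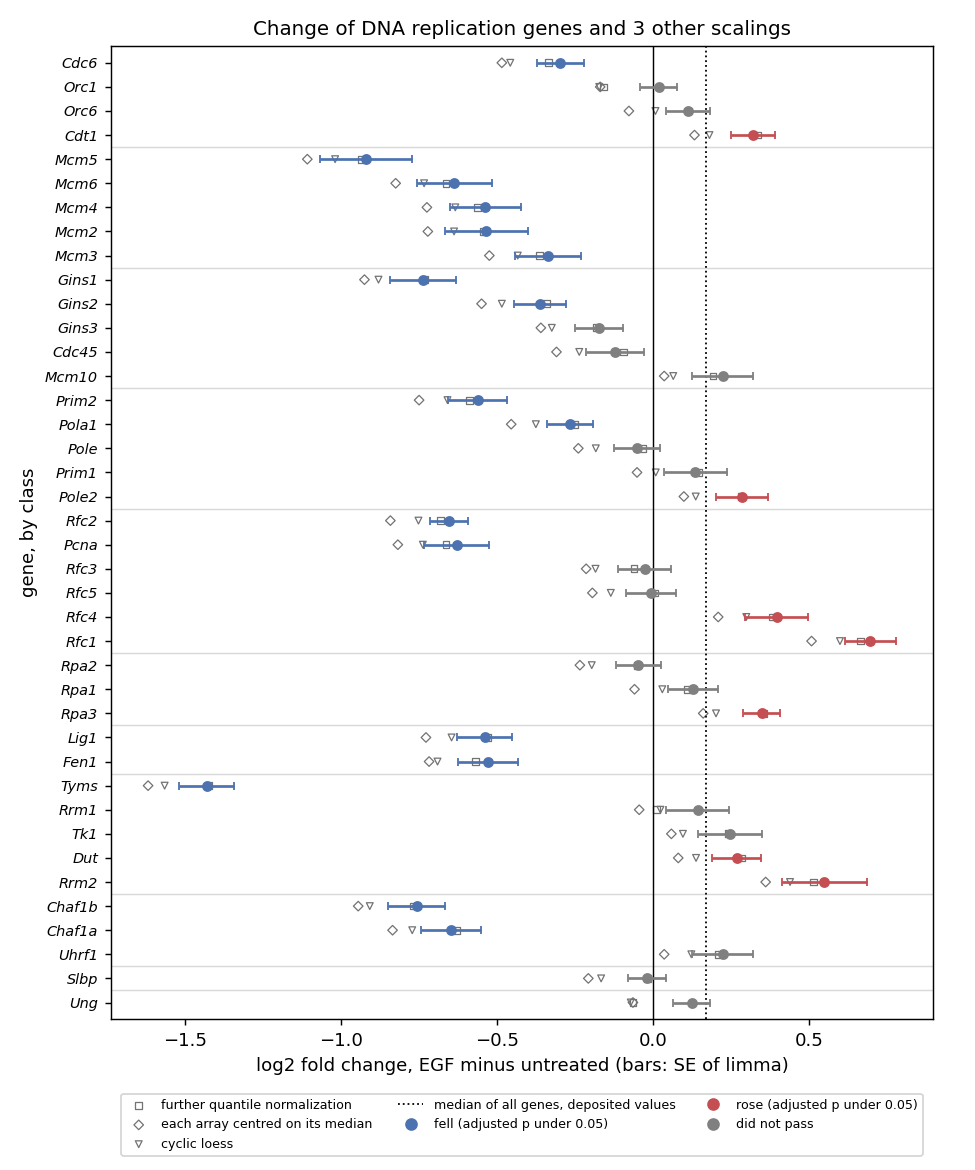
Each filled point is the log2 fold change, EGF minus untreated (x axis), of 1 replication gene (y axis, grouped by class) in the deposited values, with limma's SE as a bar and colour by call; open symbols give the change under 3 other scalings and the dotted line the median of all genes, 0.168. Centring and loess move nearly every gene to the left, and the MCM genes, Lig1, Fen1, Tyms and the Chaf1 genes lie left of 0 under each scaling.

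Of 35 other replisome genes 11 rose (31.4%, against 39.7% of all genes) and 8 fell (22.9%, against 20.7%). In the deposited values these shares were not far from those of all genes. A further 16 did not pass, and the median difference was 0.05. The largest rises were those of Pold4, a small subunit of the lagging-strand polymerase delta, by 1.54 ± 0.08 (limma adjusted p = 1.05e-07), and of Cdc7, the kinase that fires licensed origins, by 1.36 ± 0.07 (limma adjusted p = 1.35e-07). Pold4 had untreated values of 7.44 to 7.5 and EGF values of 8.86 to 9.21, and Cdc7 had untreated values of 7.12 to 7.25 and EGF values of 8.37 to 8.64. The largest falls were those of Orc2, a core subunit of the origin recognition complex, by 0.98 ± 0.07 (limma adjusted p = 6.7e-07), and of Gins4, given above. Gmnn, which encodes geminin, the inhibitor of Cdt1, had a difference of 0.16 ± 0.09 (limma adjusted p = 0.149). Counts of this list depend on the scale. After centring 15 of the 35 fell and 6 rose, where 27.8% of all genes fell and 18.7% rose. After loess 15 of the 35 fell, where 27.3% of all genes fell. The share of this list that fell was then above that of all genes.

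Of 15 other nucleotide genes 4 fell (26.7%, against 20.7% of all genes), 7 rose (46.7%, against 39.7%) and 4 did not pass. In the deposited values these shares were not far from those of all genes. After centring and after loess 7 of the 15 fell, where 27.8% and 27.3% of all genes fell. Ctps, CTP synthase, fell by 3.53 ± 0.09 (limma adjusted p = 8.33e-10), with untreated values of 13.53 to 13.74 and EGF values of 9.93 to 10.32. Samhd1, which breaks down dNTPs, fell by 1.92 ± 0.10 (limma adjusted p = 1.04e-07). Dck, deoxycytidine kinase, rose by 1.2 ± 0.08 and Dctpp1, a dCTP pyrophosphatase, by 0.98 ± 0.07 (limma adjusted p = 9.28e-07 and 1.16e-06).

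Beside CAF-1, 5 of 8 other genes of chromatin replication fell (62.5%, against 20.7% of all genes) and 1 rose (12.5%, against 39.7%). Another 2 did not pass, and the median was -0.40. The histone chaperone genes Asf1b and Asf1a, whose proteins hand histones to CAF-1, fell by 1.26 ± 0.06 and 0.90 ± 0.07 (limma adjusted p = 6.59e-08 and 1.08e-06). Hells, Nasp and Hat1 fell as well. Dnmt1, the maintenance methyltransferase, rose by 0.23 ± 0.07 (limma adjusted p = 0.0184), a rise not called after centring or loess. The count of rises in this list was also 0 without untreated replicate 3, untreated replicate 4 or EGF replicate 1. Of 3 replication-dependent histone genes with a cluster of their own H2ac18 fell by 0.47 ± 0.10 (limma adjusted p = 0.00275), and near-identical copies make these signals uncertain.

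The regulators of the replication programme moved in both directions, with 7 rises (50.0%, against 39.7% of all genes) and 4 falls (28.6%, against 20.7%) among 14. Cdkn1a, which encodes the kinase inhibitor p21, read 14.34, 14.49, 14.36 and 14.34 untreated and 16.60, 16.61, 16.44 and 16.63 with EGF, a rise of 2.19 ± 0.07 (limma adjusted p = 2.67e-09). E2f1, an activator, rose by 1.22 ± 0.08 (limma adjusted p = 3.46e-07) and E2f5, which acts mainly as a repressor, by 1.29 ± 0.06 (limma adjusted p = 2.72e-08). E2f7, a repressor, fell by 1.46 ± 0.09 (limma adjusted p = 2.74e-07) and E2f4, also mainly a repressor, by 1.12 ± 0.12 (limma adjusted p = 1.5e-05). The 2 cyclin E genes, whose products drive entry into S phase, were both lower: Ccne2 fell by 0.97 ± 0.10 (limma adjusted p = 1.09e-05) and Ccne1 by 0.64 ± 0.10 (limma adjusted p = 0.000405). Ccnd1 of this list is not analysed here.

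Mitosis genes gave a different count. Of 27 such genes 18 rose (66.7%, against 39.7% of all genes), 2 fell (7.41%, against 20.7%) and 7 did not pass. The median difference was 0.52 against -0.05 for the replication genes, and the difference between the lists was not tested. Hmmr, a spindle protein gene, rose by 1.47 ± 0.16 (limma adjusted p = 2.2e-05) and Aurkb, the kinase of the chromosomal passenger complex, by 1.13 ± 0.14 (limma adjusted p = 7.93e-05). Mki67, a marker of cycling cells, read 13.29, 13.47, 13.03 and 12.98 untreated and 14.15, 13.55, 13.80 and 13.75 with EGF, a rise of 0.62 ± 0.14 (limma adjusted p = 0.00405). Ckap2l, a spindle gene, fell by 1.09 ± 0.12 and Cdk1, the mitotic kinase, by 0.30 ± 0.10 (limma adjusted p = 3.25e-05 and 0.0274). The count of 2 falls was 1 without untreated replicate 1, 2 or 3 or EGF replicate 2, 3 or 4, and ranged from 1 to 3 over all fits that left out 1 array. Ccnb1 of this list is not analysed here.

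**Figure D3:**
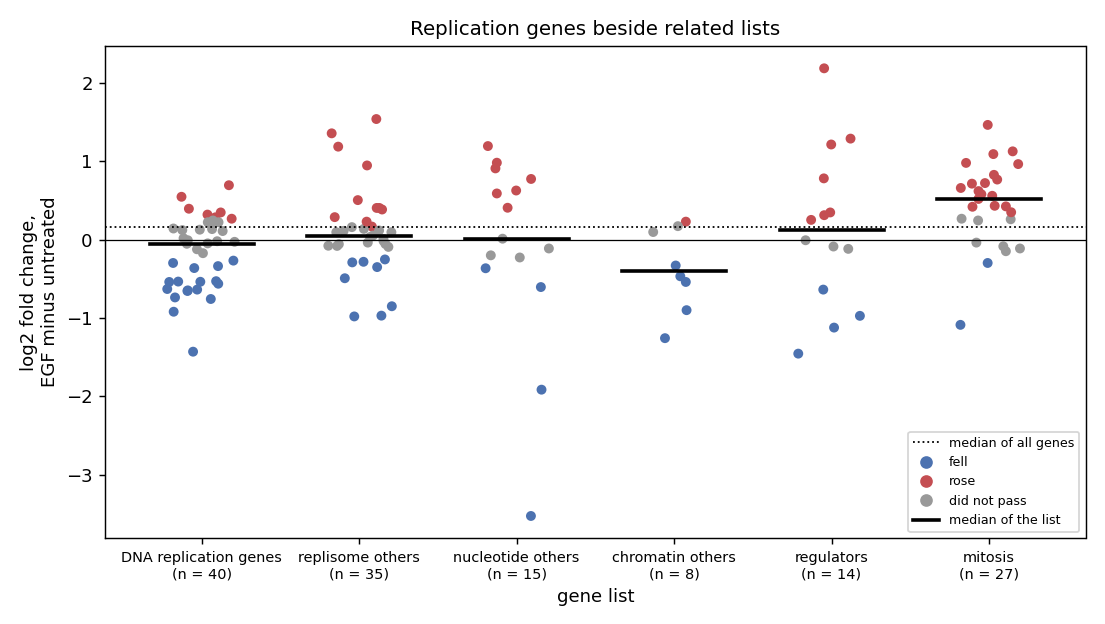
Each point is the log2 fold change, EGF minus untreated (y axis), of 1 gene in 1 list (x axis, with the number of measured genes), coloured by call; bars are list medians and the dotted line is the median of all genes, 0.168. The replication genes centre on -0.05 and the mitosis genes on 0.52, while the other chromatin genes centre on -0.40.

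Markers of other cell types moved between the same groups. The 17 microglia markers summed to 104000 to 187000 linear units untreated and 2680 to 4800 with EGF, and 16 of 17 fell; P2ry12 lay below the array median on all arrays, and Tyrobp and Trem2 on all EGF arrays. Of 11 neuroblast and neuron markers 10 fell (11100 to 16800 against 2120 to 2450), and all 6 fibroblast markers fell (1560 to 3520 against 463 to 512). Of 5 oligodendrocyte precursor markers 3 rose and 1 fell (19800 to 27600 against 36700 to 42100), and of 6 astrocyte markers 4 rose and 2 fell (105000 to 117000 against 105000 to 128000). For comparison, 20.7% of all genes fell and 39.7% rose. The oligodendrocyte precursor and astrocyte lists are too short to be told apart from these shares. The part of these cell types in the changes of the replication genes was not tested.

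Within each group the replication genes tended to be high or low on the same arrays. In untreated replicate 1, 29 of the 40 genes were at their highest of the 4 untreated arrays, and in EGF replicate 1, 33 of 40 were at their highest of the 4 EGF arrays. Over all genes the same arrays held the highest value for 8414 and 8074 of 30738. The lowest values fell in untreated replicate 4 for 31 genes and in EGF replicate 4 for 21. The mean deviation from the group mean was 0.12 in untreated replicate 1, -0.14 in untreated replicate 4, 0.15 in EGF replicate 1 and -0.08 in EGF replicate 4. The mitosis genes deviated more in the same 2 arrays, by 0.20 in untreated replicate 1 and 0.39 in EGF replicate 1, the latter with 26 of 27 genes at their highest. Without replicate 1 of both groups, an alternative chosen after the data were seen, 17 replication genes fell and 8 rose.

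**Figure D4:**
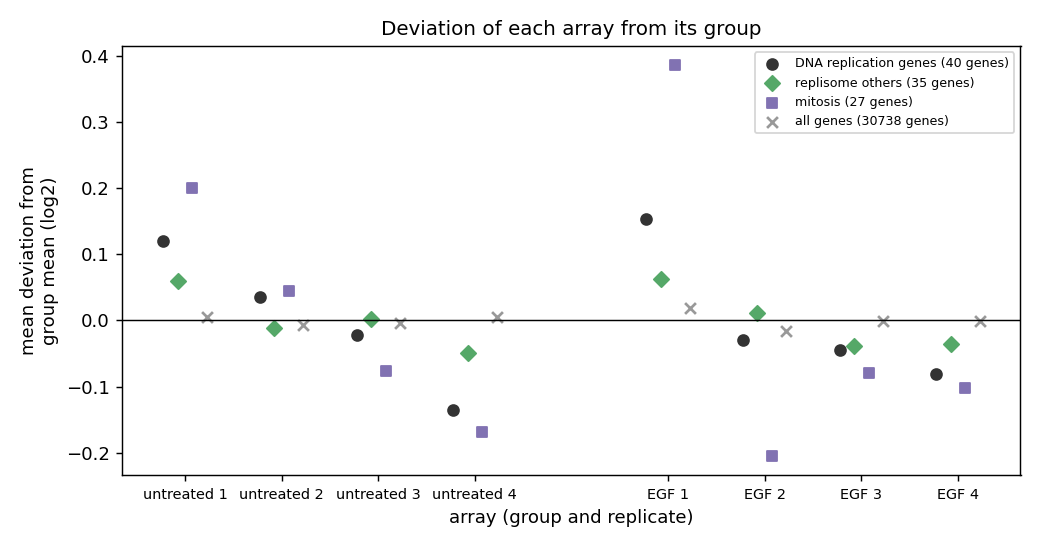
The y axis gives the mean deviation, in log2 units, of a gene list from its group mean on each array (x axis), for the replication genes, the other replisome genes, the mitosis genes and all genes. EGF replicate 1 stands highest for the mitosis genes (0.39) and the replication genes (0.15), while all genes stay near 0 on every array.

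A second file is the authors' deposited table of log2 group averages, labelled ctrl and gf in its header, which holds 4136 rows, every row with a change of 2-fold or more in size and with p-values up to 0.0499. The authors' deposited table lists 5 of the replication genes: Mcm6 with a difference of -1.61, Rfc2 with -1.07, Mcm5 with -1.06, Rrm2 with 1.05 and Cdt1 with 1.00. That ctrl and gf stand for the untreated and EGF arrays is taken from these names alone, and the levels differ from the array values: Mcm5 averages 7.09 and 6.03 in the authors' deposited table. All 5 genes have the sign found above, and each size in the authors' deposited table is larger than that of the fit above. All 5 genes changed by less than 2-fold in the fit, so any row for them past the 2-fold cut had to show a larger size. Why the averages differ from the array values was not tested. Tyms is not among the rows of the authors' deposited table used here, although it changed most in the array values. Of all rows of the authors' deposited table, 85.0% have the sign of the array values. How its averages were made is not stated.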

How the data were processed

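RNA of primary cultures was read on 8 arrays. In 1 table the authors deposited a log2 signal for each transcript cluster on each array. That the scale is log2 was read from the range of its values and from the second table's header. The submitters' processing notes name RMA, affy and limma with no version or order, and how the arrays were centred stays unknown. In the second table, per the file headers, the columns are a log2 average for each group by the authors, a p-value and its false discovery rate. No source used here gives the array's genome build.

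Of 65956 clusters 30638 had 1 symbol in the platform annotation, 2176 had several, of which 654 resolved to 1 gene, and 33142 had none. For the 439 genes with several clusters the one with the highest mean was used, which gave 30738 genes. limma 3.58.1 in R 4.3.3 was run on the deposited values by lmFit and then eBayes, with no further normalization and no filter on dim genes. The steps were tested on simulated data. The replication genes, their classes and all other lists were chosen with earlier results of these data known. Values per array are given for replication genes that passed with an absolute change of at least 0.5. Of the other lists up to 2 rises and 2 falls, the largest that passed, are named, plus Cdkn1a, E2f1, Mki67 and Gmnn. Ccne1, Ccne2, Hells, Nasp, Hat1 and H2ac18 were named beside them after their values were seen. Marker sums are of linear signals.

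The scale was varied by quantile normalization between arrays, cyclic loess and centring of each array on its median. Further alternatives were a replicate block, array weights, trend and robust moderation in eBayes, leaving out each array or the dim genes, the mean of a gene's clusters, all named clusters, treat at 1.5-fold and an adjusted p under 0.01. Leaving out replicate 1 of both groups was added after the data were seen. Promoter letters are RefSeq's, of assembly GRCm38.p6, where 32851 promoters cover 27025 genes, and a gene with several starts was counted once if any held a motif. The planned search of proteins was not run. Python 3.11.15 with numpy 2.4.6, pandas 2.3.3 and, for plots, matplotlib 3.10.9 did the rest.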

Additional observations from a re-analysis of the deposited data

Results flagged for a closer look

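In 5 of 80 groups of 4 arrays, 1 array stood apart from the other 3 by Dixon's test (the gap to the nearest array over the group's range passed its critical value); chance alone marks about 1 group in 20. In EGF replicate 1, Mcm3 read 9.93 against 9.52 to 9.55 on the other EGF arrays. On the same array Rrm1 read 13.51 against 13.17 to 13.19, and Uhrf1 read 9.51 against 9.15 to 9.21. In untreated replicate 1, Prim1 read 7.83 against 7.59 to 7.63. In EGF replicate 2, Rpa1 read 9.59 against 9.44 to 9.45. Of these 5 genes Mcm3 alone passed in the fit.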

How the results depend on the processing

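The 17 falls and 7 rises of replication genes became 17 and 7 after quantile normalization, 22 and 1 after centring on the median, 21 and 4 after cyclic loess, 1 (Tyms) and 0 under treat at 1.5-fold, and 15 and 5 at an adjusted p under 0.01. Their median was -0.237 after centring and -0.191 after loess. Leaving out each array in turn gave 16 to 18 falls, 7 to 8 rises and a median of -0.095 to -0.018. With a replicate block 17 fell and 10 rose, Mcm10, Tk1 and Uhrf1 being added; over all genes same-numbered arrays did not deviate together (r of -0.084, -0.003, -0.054 and -0.026), so the numbers were not taken to pair the arrays, although the replication genes were mostly highest in replicate 1 of both groups. Array weights, eBayes with trend and robust, the mean of clusters, all clusters and leaving out dim genes (38 of the 40 kept) moved neither count by over 1.5 times. Over all genes 2686 fell under treat. The rises over all genes were 12198, and 7271 after quantile normalization, 5741 after centring, 6326 after loess, 6741 without dim genes, 2504 under treat and 8012 at an adjusted p under 0.01; leaving out each array gave 6013 to 6281 falls and 10413 to 12470 rises. The causes of these shifts were not tested, beyond that centring and loess lower the differences and that a stricter threshold and fewer genes tested lower a count.

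Values that changed sign were small. After quantile normalization, centring and loess in turn, the median of the licensing genes was -0.024, -0.124 and -0.083, that of the other nucleotide genes -0.011, -0.175 and -0.085, the difference of Orc1 -0.160, -0.170 and -0.173 and that of Ung -0.065, -0.065 and -0.072. Centring and loess gave -0.135 and -0.107 for the other replisome genes and -0.065 and -0.027 for the regulators. Centring turned the RPA median to -0.060, Rrm1 to -0.045, Prim1 to -0.052, Rpa1 to -0.060 and Orc6 to -0.078, and quantile normalization turned Rfc5 to 0.005. Leaving out 1 array at a time, the clamp median ranged from -0.070 to 0.025, that of the other nucleotide genes from -0.024 to 0.059, Rfc3 from -0.082 to 0.028, Rfc5 from -0.057 to 0.036, Slbp from -0.056 to 0.001, Rpa2 from -0.095 to 0.005 and Orc1 from -0.008 to 0.038. Rpa2 was 0.020 without replicate 1 of both groups. No detection calls were used, and 4 arrays a group limit the precision; signals of Orc1 and Ung lie within 0.5 of the array medians, where changes can be understated.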
